A study of Mus musculus with 5 samples.

Results

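The epicardial identity genes are 8 genes that mark the outer cell layer of the heart or give that layer its epithelial character: Wt1, Tcf21, Upk3b, Upk1b, Msln, Krt8, Krt18 and Krt19. They were chosen by name, and every probe set, the group of short oligonucleotides that reports 1 transcript, was taken whose platform annotation gives exactly 1 of these symbols. This gave 10 probe sets of 7 genes, out of 20380 probe sets of 12393 genes in the whole table. Upk1b has no probe set under its own single symbol in the annotation used here. The probe sets are 1425995_s_at for Wt1, 1417447_at for Tcf21, 1454881_s_at and 1434237_at for Upk3b, and 1460238_at for Msln. Krt8 is read by 1420647_a_at, 1435989_x_at and 1423691_x_at, Krt18 by 1448169_at and Krt19 by 1417156_at.

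The samples were whole E12.5 hearts, from midgestation, of 5 wild-type mouse embryos, each on its own Affymetrix 430A array. The strain is 129P2/OlaHsd taken through 2 backcross generations to C57BL/6. The hearts carry the numbers 6 to 10 in the labels and form 1 group, so levels and the spread between hearts can be given but no condition can be compared. Whether the embryos share a litter is not stated. Each heart was read on 1 array, so the spread may be partly technical.

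The epicardium is a sheet of mesothelium, a simple squamous epithelium, that grows over the myocardium during midgestation. Some of its cells lose their epithelial contacts, enter the heart wall and form fibroblasts and vascular mural cells. Wt1 and Tcf21 are transcription factors of this layer and its descendants. Upk3b, Upk1b and Msln encode proteins of the mesothelial cell surface, and keratins 8, 18 and 19 build the intermediate filaments of simple epithelia. None of these genes belongs to the epicardium alone, since Wt1 is also used in kidney and gonad, Tcf21 in other visceral mesenchyme and the keratins in most simple epithelia. In RNA from a whole heart, fewer epicardial cells and less of a transcript per cell cannot be told apart.

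Levels are log2 of the deposited intensity plus 16, as mean ± SD over 5 hearts (n = 5 throughout). As background, each array's 95th percentile was taken over 63 measured genes that other organs use, such as lens, testis and pancreas. Background lay at 5.27, 5.49, 5.45, 5.31 and 5.35 in hearts 6 to 10. A gene is called detected where its brightest probe set exceeded background in all 5 hearts. Probe sets differ in how strongly they respond, so a gene called not detected may still be expressed, and levels of different genes are not set against each other.

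The arrays had the same scale, with a 2% trimmed mean of 150.1 on each and medians between 27.1 and 30.4. Between 6906 and 7421 genes per array exceeded background, and any of the 10 heart pairs had a Pearson's r of 0.965 to 0.983, computed over genes, which do not count as replicates. The Gapdh control's 3′ signal divided by its 5′ signal, a measure of RNA length, was highest in heart 7, at 5.69 against 2.50 to 3.55, while its actin ratio of 4.27 lay within the 3.20 to 4.48 of the others. Of 8 listed genes of cardiac muscle, the labelled tissue's main cell type, 7 were detected, against 51.0% of all genes. The remaining one, Nkx2-5, exceeded background in 4 hearts (5.64 ± 0.28). The troponin gene Tnnt2 had levels of 12.78, 13.14, 13.15, 12.99 and 12.96 in hearts 6 to 10. Myh6 and Myl2 were at 11.97 ± 0.14 and 13.19 ± 0.17.

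Signal above background in every heart was found for 5 of the 7 measured genes, Wt1, Upk3b, Krt8, Krt18 and Krt19. The remaining 2, Tcf21 and Msln, exceeded it in 4 hearts and in 1 heart. Over all genes 51.0% were detected. No epicardial identity gene passed the test for a larger spread between hearts than genes of its level have, although the SDs of Tcf21, Msln and Krt8 lay above the expected one.

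**Figure D1:**
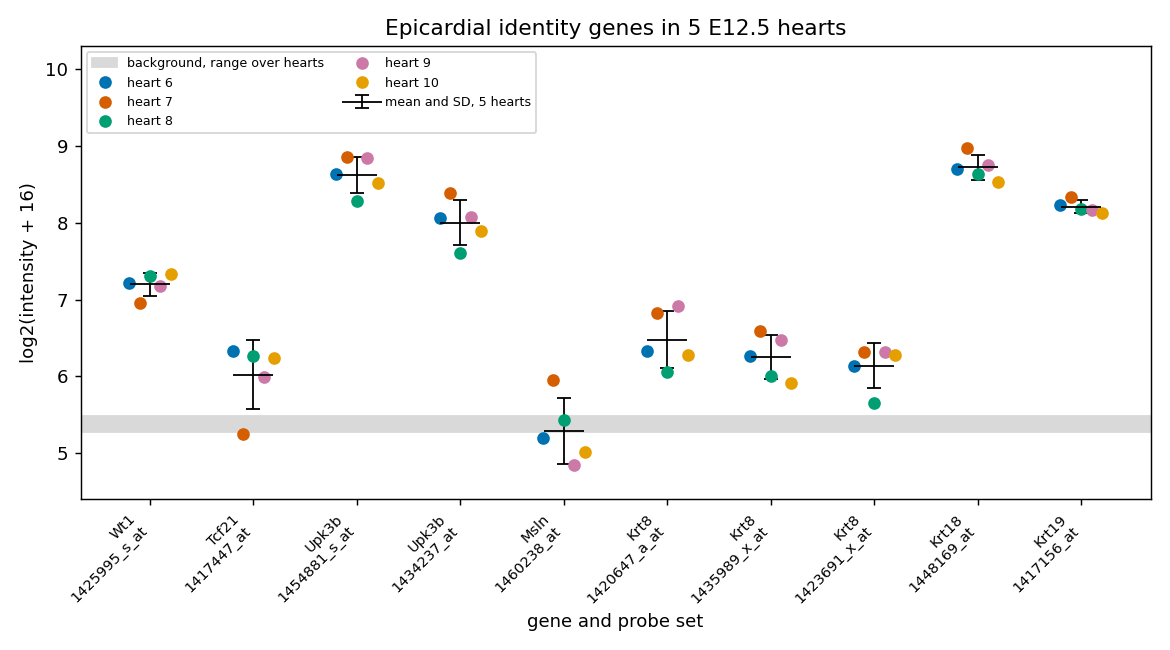
Level of each of the 10 probe sets, log2(intensity + 16), in hearts 6 to 10 (coloured points), with the mean and SD over 5 hearts (black) and the range of the background over arrays (grey band, 5.27 to 5.49). All points of Wt1, Upk3b, Krt8, Krt18 and Krt19 lie above the band, Tcf21 falls below it in heart 7, and Msln rises above it in heart 7 alone.

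Promoters of 4 of the 8 genes, Tcf21, Upk3b, Krt8 and Krt18, were found in the RefSeq promoter table (build GRCm38.p6). All 4 that were found are shown. Krt8 and Krt18 encode the partners of 1 filament. By their brightest probe sets Krt8, Krt18 and Upk3b had their 2 highest values in hearts 7 and 9, and Tcf21 did not. A link between these sequences and the levels was not tested. Each window holds 150 bases, from 120 before the annotated gene start to 30 from the start on, written 5′ to 3′ on the gene's own strand. Capitals mark matches on either strand to TATAA, the core of the TATA box, or CANNTG, the E-box that factors of the Tcf21 class recognise.

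Tcf21, chr10:22820114-22820263, minus strand: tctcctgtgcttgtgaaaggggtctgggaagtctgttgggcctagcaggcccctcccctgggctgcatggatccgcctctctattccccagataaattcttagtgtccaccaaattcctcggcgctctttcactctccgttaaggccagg

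Upk3b, chr5:136038376-136038525, plus strand: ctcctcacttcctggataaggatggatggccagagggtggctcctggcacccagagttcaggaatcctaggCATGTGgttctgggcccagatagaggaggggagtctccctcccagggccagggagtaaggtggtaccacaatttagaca

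Krt8, chr15:102004313-102004462, minus strand: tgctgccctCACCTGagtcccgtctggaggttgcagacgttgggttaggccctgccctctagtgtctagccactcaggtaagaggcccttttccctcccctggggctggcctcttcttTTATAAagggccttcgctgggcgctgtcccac

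Krt18, chr15:102028096-102028245, plus strand: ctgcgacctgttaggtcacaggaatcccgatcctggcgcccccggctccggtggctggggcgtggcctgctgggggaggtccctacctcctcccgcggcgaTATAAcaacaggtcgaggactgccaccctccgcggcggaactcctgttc

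TATAA matched in both keratin windows and in neither of the other two. In Krt18 it begins 19 bases before the annotated start. In Krt8 it matches once on each strand, overlapping. The match on the gene's own strand begins 1 base before the annotated start, and the other begins 2 bases before it. Of 32851 RefSeq promoter windows of the same length, 13.4% hold TATAA. The E-box CANNTG matched once in Upk3b, 49 bases before the start, and once in Krt8, 111 bases before it, and 47.6% of all windows hold it. GGGCGG, the GC box, and TGANTCA, the AP-1 element, were also searched on both strands and matched in none of the 4 windows, against 29.1% and 4.16% of all windows. A match is a description of these letters and not evidence of a bound factor. In the RefSeq gene table Krt8 and Krt18 lie on the same chromosome with 2 annotated genes between them.

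Of the transcription factors, Wt1, a zinc finger protein needed for the epicardium and for the mesenchymal cells it gives off, had levels of 7.21, 6.96, 7.30, 7.18 and 7.33 in hearts 6 to 10. All 5 values lay above background, with heart 7 lowest and the other 4 within 7.18 to 7.33. The mean was 7.20 ± 0.15, from a deposited intensity of 131 ± 14.5 (SD). Its SD was below the 0.28 that genes of this level have between hearts. Without heart 7 the SD of Wt1 was 0.07. Wt1 rests on a single probe set of type _s_at, a type whose oligonucleotides can match more than 1 transcript.

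Tcf21, a basic helix-loop-helix factor of the epicardium and of the fibroblast lineage, had levels of 6.33, 5.25, 6.26, 5.99 and 6.24. Heart 7 lay below its array's background of 5.49, and the other 4 lay above theirs. The mean was 6.02 ± 0.45, and the coefficient of variation of the intensity was 34.1%. Since heart 7 lay below background, the size of its distance from the others is not given. The spread did not pass limma's variance test, which sets a gene's variance against genes of similar level (unadjusted p = 0.0997, adjusted p = 0.960 by Benjamini-Hochberg over all genes). Without heart 7, Tcf21 was detected in all 4 remaining hearts and its SD was 0.15.

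Of the mesothelial surface genes, Upk3b, a uroplakin that marks mesothelium, had levels of 8.63, 8.85, 8.28, 8.84 and 8.52 by its brighter probe set. The other probe set gave 8.06, 8.39, 7.61, 8.08 and 7.89. Both were above background in all hearts and both placed heart 7 highest and heart 8 lowest. Their means were 8.62 ± 0.24 and 8.00 ± 0.29. They differ in level, as probe sets of 1 gene can, but their deviations from their own means differed by at most 0.16, in heart 7.

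Msln encodes mesothelin, an adhesion protein anchored to the mesothelial surface. Its levels were 5.20, 5.95, 5.43, 4.85 and 5.02, with a mean of 5.29 ± 0.43. It exceeded background in heart 7, stayed just under the 5.45 of heart 8 and lay below background in the other 3. The coefficient of variation of its intensity was 52.7%, the widest of the 10 probe sets, at a mean intensity of 24.6. The variance test gave an unadjusted p of 0.148 (adjusted p = 0.960, limma).

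Of the keratins, Krt18, a type I chain, had levels of 8.70, 8.97, 8.64, 8.75 and 8.53, a mean of 8.72 ± 0.16. Heart 7 was highest and heart 10 lowest. Krt19, also a type I chain, had 8.23, 8.34, 8.18, 8.17 and 8.13, a mean of 8.21 ± 0.08. This was the smallest SD of the 7 genes, against 0.26 for genes of its level, and its intensity varied by 5.90% between hearts. Heart 7 was again highest and heart 10 lowest, within a range of 0.20.

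Krt8, the type II chain that pairs with keratin 18, varied more. Its brightest probe set gave 6.33, 6.83, 6.06, 6.91 and 6.28 in hearts 6 to 10, with hearts 7 and 9 above the other 3. The mean was 6.48 ± 0.37, and the variance test gave an unadjusted p of 0.212 (adjusted p = 0.960, limma). The second probe set gave 6.26, 6.59, 6.00, 6.48 and 5.91, and the third 6.14, 6.32, 5.65, 6.32 and 6.28. All 3 stayed above background in every heart. They disagreed most in heart 10, where their deviations spanned 0.47, since the third placed that heart near hearts 7 and 9 and the other 2 did not. The 2 dimmer ones are of type _x_at, whose oligonucleotides can bind related sequences.

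Across the 7 genes, none was called more variable than genes of its level, and none had an unadjusted p under 0.05. Over all 12393 genes limma's test called 5, or 0.0403%, and 551 had an unadjusted p under 0.05. The median SD was 0.24 for the 7 genes, 0.26 for all genes and 0.24 for all detected genes. The number of arrays limits the precision, and a gene that misses the threshold is not shown to be alike in all hearts.

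**Figure D2:**
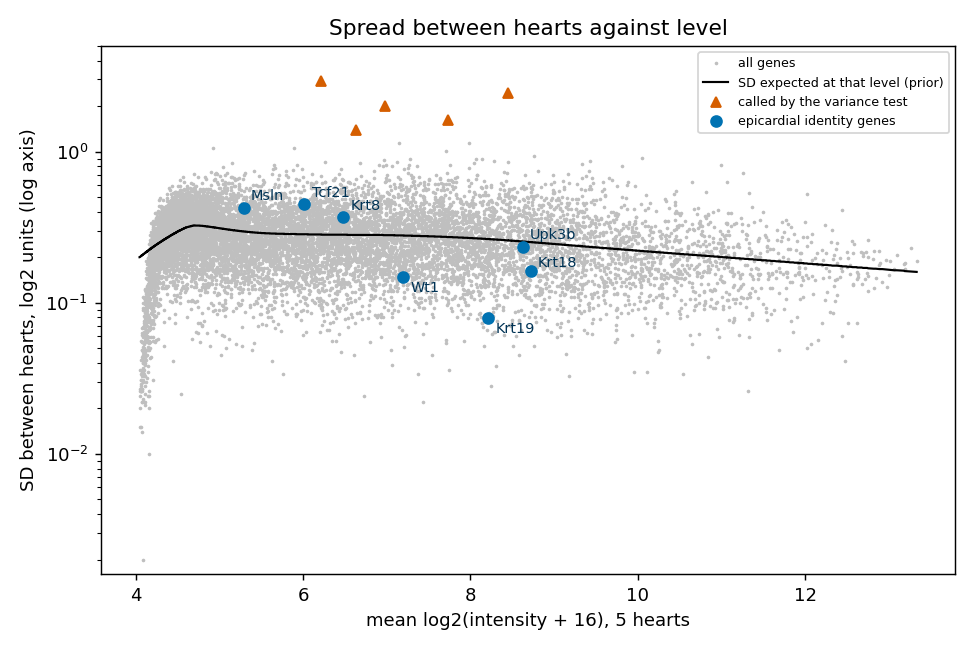
SD between hearts (log axis) against mean level for all 12393 genes (grey), with the SD expected at each level (black line), the 5 called genes (triangles) and the 7 epicardial identity genes (blue). Msln, Tcf21 and Krt8 lie above the line and Upk3b, Krt18, Wt1 and Krt19 below it, all among the other genes.

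The genes did not deviate in the same direction in heart 7. Of the 7, 4 had their highest level there (Upk3b, Msln, Krt18 and Krt19), and 2 had their lowest (Wt1 and Tcf21). Among the 5 detected genes these counts were 3 and 1. Heart 7 also held the highest value of 30.8% and the lowest value of 28.8% of all detected genes, so extremes in this heart were common. The median distance of heart 7 from the mean of the others was 0.30 for the 5 detected genes and 0.28 for all detected genes. Heart 7 was set apart here after its values were seen.

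**Figure D3:**
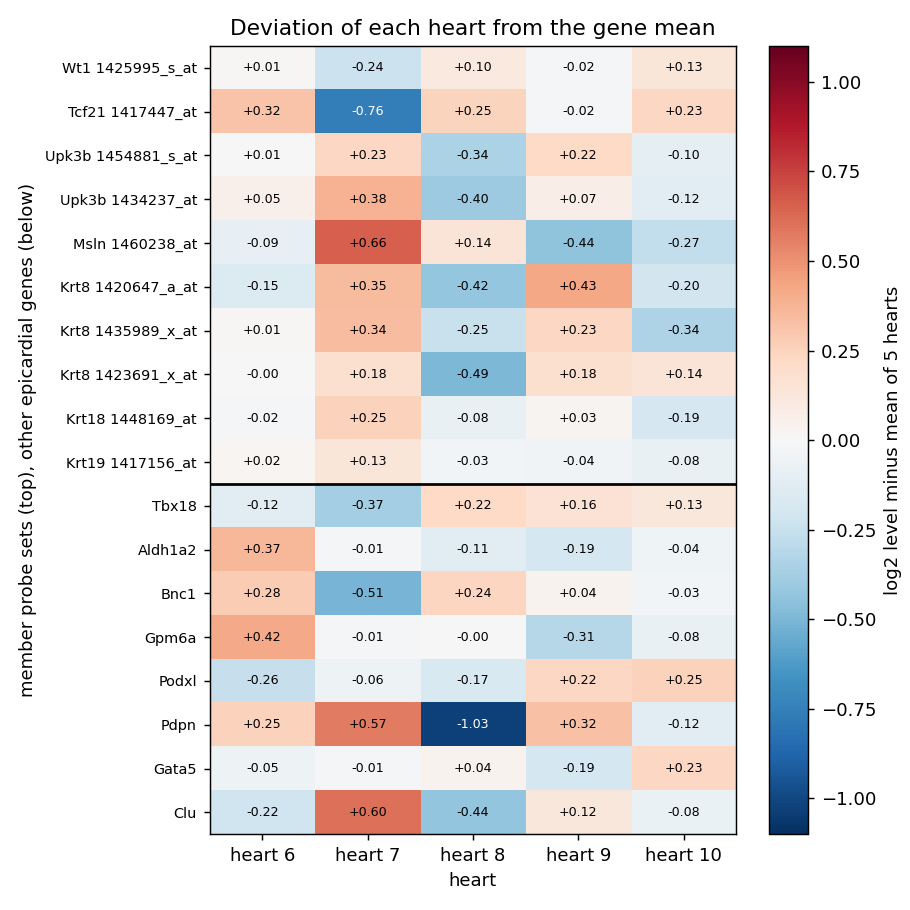
Log2 level of each heart minus the mean of 5 hearts, for the 10 member probe sets (above the line) and the 8 other epicardial genes that were detected (below it). Heart 7 is low for Wt1, Tcf21, Tbx18 and Bnc1 and high for Upk3b, Msln, Pdpn and Clu. The keratins are at or near their highest there, and Aldh1a2, Gpm6a, Gata5 and Podxl are near their means.

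Other features also moved in heart 7. The Gapdh ratio given above was highest there. A list of 10 red cell genes was added after the data were seen. Their summed intensity was 27900 in heart 7 and 18500 to 26600 in the others. Of 9 measured, 7 were highest in heart 7, and Tfrc was lowest there. Of the 7 detected, 5 were highest in heart 7, against 30.8% of all detected genes. The globin genes Hba-x, Hbb-bh1 and Hbb-y were at 12.44 ± 0.41, 12.00 ± 0.34 and 13.10 ± 0.21. The 7 lung and foregut markers exceeded background in no heart, whereas the liver genes Ttr and Apoa2 exceeded it in 5 and in 4 hearts. For the 7 lung and foregut genes the summed intensity was 44.2 in heart 7, within the 33.5 to 60.0 of the other hearts. For the 8 liver genes it was 176, against 91.2 to 171. The liver genes that were highest in heart 7, Alb, Afp, Apoa1 and Fga, exceeded background in no heart. Ttr and Apoa2 were at 5.95 and 5.99 in heart 7, against 5.59 to 6.22 and 4.50 to 6.52 in the others. The part of RNA quality, of blood and of neighbouring tissue in the values of heart 7 was not tested.

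Genes of the wider epicardial programme were detected about as often as genes in general. Of 18 other epicardial and mesothelial genes, 14 were measured, 8 were detected, 3 exceeded background in some hearts and 3 in none. The share of 57.1% was near the 51.0% of all genes. None passed the variance test over all genes, and 3 had an unadjusted p under 0.05, Pdpn, Anxa8 and Clu.

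Of the other regulators of the layer, Tbx18, Bnc1 and Gata5 were detected in every heart, whereas Scx exceeded background in no heart. Tbx18, a T-box factor of the epicardium, had 7.04, 6.79, 7.38, 7.32 and 7.29 in hearts 6 to 10 (7.16 ± 0.24). Bnc1, which encodes the zinc finger protein basonuclin 1 of mesothelium, had 6.43, 5.64, 6.39, 6.19 and 6.12 (6.16 ± 0.32). Both had their lowest value in heart 7, as did Wt1 and Tcf21. Of the 14 measured genes of the other epicardial list, 2 were lowest in heart 7 and 4 highest. Among its 8 detected genes, 2 were lowest there, Tbx18 and Bnc1, and 2 highest, Pdpn and Clu. Over all detected genes 28.8% were lowest and 30.8% highest there. Gata5, a GATA factor of endocardium and epicardium, had a mean of 6.58 ± 0.15 with heart 7 in the middle of its range.

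Aldh1a2, which makes the retinoic acid that epicardium supplies to the myocardium, had 6.11, 5.73, 5.63, 5.55 and 5.70 (5.74 ± 0.22). It was above background in every heart, by the least in heart 8. Aldh1a1, a related dehydrogenase, exceeded background in heart 7 alone, at 5.97 against 4.72 to 5.20 in the others.

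Among membrane proteins, Pdpn, the mucin-like protein podoplanin, had 9.71, 10.03, 8.43, 9.78 and 9.34 (9.46 ± 0.62). Heart 8 was lowest by a wide gap, and the unadjusted p of 0.00343 did not hold after adjustment (adjusted p = 0.670, limma). Podxl, which encodes podocalyxin and is also made by endothelium, had 9.39 ± 0.23. Gpm6a, a membrane glycoprotein, had 7.13 ± 0.26, and the secreted chaperone clusterin, Clu, had 10.90 ± 0.40. Anxa8, an annexin, exceeded background in heart 7 alone, at 6.03 against 4.30 to 5.09. Rspo1, a secreted activator of Wnt signalling, did so in heart 8 alone, at 5.86 against 5.05 to 5.30. The integrin Itga4, the secreted protein Dmkn and the transcription factor Scx exceeded background in no heart.

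The keratins and uroplakins outside the 8 genes were mostly at background, while 51.0% of all genes were detected. Of 12 other keratins, 1 was detected, the simple epithelial chain Krt7, at 7.09, 7.92, 7.10, 7.43 and 7.15 (7.34 ± 0.35). Heart 7 was highest and heart 9 next, as for Krt18. Krt20 exceeded background in 4 hearts (5.77 ± 0.42), and the other 10, among them Krt23, in none. Of 3 other uroplakins, Upk1a and Upk3a exceeded background in no heart and Upk2 in 1 heart.

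General epithelial genes were mostly at background as well, against the same 51.0% detected of all genes. Of 16 genes of simple epithelial junctions and identity, 0 were detected, 4 exceeded background in some hearts and 12 in none. The adhesion genes Cdh1, Epcam and Cldn7 were at 4.33 ± 0.27, 4.39 ± 0.39 and 4.74 ± 0.25. Grhl2, an epithelial transcription factor, exceeded background in 4 hearts, at 5.98, 5.58, 5.44, 5.81 and 5.79.

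Mesenchymal genes that epicardium-derived cells use were mostly detected, 11 of 13, against 51.0% of all genes. Cushion cells and other mesenchyme express them too. The receptor gene Pdgfra had 8.25, 7.63, 8.37, 7.94 and 8.16, lowest in heart 7 as Tcf21 was. Of the 13 genes, 5 had their lowest value in heart 7 and 1 its highest, and all of these were detected genes. Over all detected genes the shares were 28.8% and 30.8%. Pdgfrb had 6.31 ± 0.29 and the transition factor Snai2 6.95 ± 0.25. Snai1 exceeded background in no heart.

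**Figure D4:**
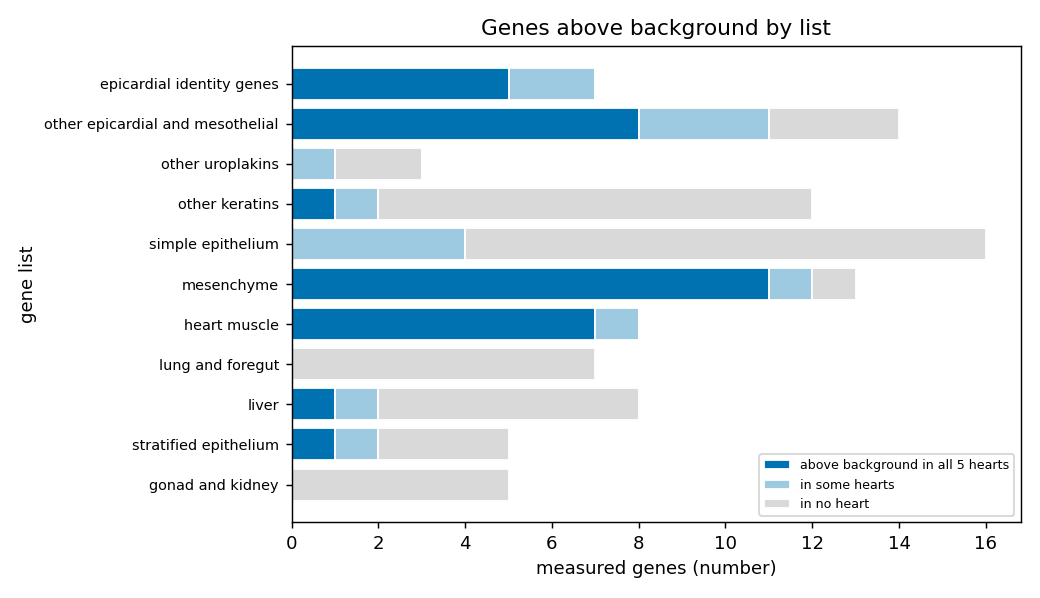
Number of measured genes in each list that exceeded background in all 5 hearts (dark), in some hearts (light blue) or in none (grey). The epicardial identity genes have 5 of 7 in all hearts, other keratins 1 of 12, simple epithelium 0 of 16 and lung and foregut 0 of 7.

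Markers of other tissues were mostly, but not all, at background, while 51.0% of all genes were detected. Of 5 measured gonad and kidney genes, where Wt1 is also made, 0 exceeded background in any heart, with Nphs1, Lhx9 and Nr5a1 at 4.46 ± 0.33, 4.79 ± 0.36 and 5.01 ± 0.31. The 7 lung and foregut genes, from keratin-rich epithelia, exceeded it in no heart, with Nkx2-1 at 5.00 ± 0.33, Sftpc at 4.57 ± 0.24 and Foxa2 at 4.13 ± 0.10. Of 8 liver genes, 1 was detected, Ttr (5.95 ± 0.24). The apolipoprotein gene Apoa2 exceeded background in 4 hearts, at 4.50, 5.99, 6.52, 6.33 and 6.28 in hearts 6 to 10. It had an unadjusted p of 0.00189 by limma's variance test (adjusted p = 0.528). The other 6 liver genes, among them Alb, Afp and Apoa1, exceeded background in no heart. Of 5 measured genes of stratified epithelium, Perp was detected (9.27 ± 0.32), while Krt5, Krt14 and Trp63 exceeded background in no heart.

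The genes whose profile over the 5 hearts lay closest to Krt8 and Upk3b, the 2 detected genes of largest SD, were sought among the 6317 other detected genes. Likeness was the root mean square difference of log2 levels after each gene's mean was removed. Cdc16, Ube2r2 and Ampd2 were closest to Krt8, with differences of 0.0688, 0.0704 and 0.0708. Pmm2, Rangrf and Ap2s1 were closest to Upk3b, with differences of 0.0262, 0.0317 and 0.0348. None of these 6 genes is in the epicardial or keratin lists used here, and a profile over 5 hearts is a short basis for likeness.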

How the data were processed

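RNA from 5 whole hearts was amplified from a small input and hybridised to 1 array each, per the labels' protocols. Values are linear intensities as deposited, which the authors made with GCOS, per the submitters' processing notes. The GCOS version, the summary algorithm and the platform's probe sequences are not stated in the sources used here. Amplification from little RNA can add noise to weak transcripts, and the common scale hides a difference in total signal. The table has 22690 probe sets. Of these, 20393 have 1 gene symbol in the platform annotation, 691 several and 1606 none listed. Without control probe sets 20380 remained, of which 20351 matched the RefSeq gene table (GRCm38.p6) by Entrez number.

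Arrays were brought to the same 2% trimmed mean, and 16 was added before log2. Each gene was read by its brightest probe set. The variance test used R 4.3.3 and limma 3.58.1 across all genes. Each gene's variance over hearts (4 degrees of freedom) was set against a robust prior that follows mean level (12.06 degrees of freedom), upper tail, with Benjamini-Hochberg adjustment and a threshold of 0.05. The script was tested on simulated shifts, wider than any member's range and in genes brighter than Tcf21, Msln and Krt8. That run does not show how well the test would find a larger spread in these genes. Detected genes passed a filter on low values, so counts over them are not counts over all members.

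The members and gene lists were chosen with earlier results of these data known, and the red cell list after the values were seen. Named genes were all members, all measured genes of the other epicardial list, the first 3 measured genes of each further list in written order, any listed gene past the variance test, and the 3 closest profiles of 2 members. Other names, in counts of 5 or fewer or singled out for a heart, were chosen after their values were seen. Alternatives were other scalings, offsets of 1 and 64, other choices of probe set, background at the 90th or 99th percentile, 3 hearts in place of 5, other priors, dim genes left out, each probe set on its own and each heart left out.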

Additional observations from a re-analysis of the deposited data

Results flagged for a closer look

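Dixon's ratio was computed for 59 sets of values, from the 10 member probe sets and 49 of the named genes of the other lists. In it the distance of the most extreme heart from its neighbour is divided by the range over 5 hearts. About 1 in 20 such groups exceeds the limit of 0.71 by chance, and 6 of the 59 did. That rate is for normally distributed values, which was not checked here. Grhl2, Snai1, Ttr, Apoa2 and Perp were included after their values were seen, so the count cannot be judged against the rate. Among the epicardial identity genes it was 1 Krt8 probe set, 1423691_x_at, which had 5.65 in heart 8, with the others at 6.14 to 6.32 (ratio 0.73). The 2 other Krt8 probe sets did not exceed the limit.

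The other 5 belong to genes not detected in all hearts. Dmkn had 4.78 in heart 9, with the others at 4.04 to 4.15 (ratio 0.85). Upk3a had 4.91 in heart 6, with the others at 4.13 to 4.29 (ratio 0.79). Nkx2-1 had 4.43 in heart 6, with the others at 5.05 to 5.23 (ratio 0.78). Foxa2 had 4.30 in heart 8, with the others at 4.06 to 4.13 (ratio 0.72). These 4 genes stayed below background in every heart. Apoa2 had 4.50 in heart 6, with the others at 5.99 to 6.52 and above background (ratio 0.74).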

How the results depend on the processing

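The number of epicardial identity genes detected, 5 of 7, lay between 4 and 6 over 14 alternatives. It was 6 without heart 7, at the 90th percentile of background and when 3 hearts sufficed, since Tcf21 was then detected, and 4 when _x_at and _s_at probe sets were dropped, since Wt1 has no other. Without a heart it lay between 5 and 6. None of the 7 was called variable in those of the 15 alternatives that included it, the lowest adjusted p being 0.939 (limma). Wt1 was absent without _x_at and _s_at probe sets, and Tcf21 and Msln were absent when genes not detected were left out. The median SD of 0.235 ranged from 0.149, without heart 7, to 0.328, without _x_at or _s_at probe sets and so without Wt1. Msln exceeded background in 1 heart as reported, in 4 with probe sets of a gene averaged or at the 90th percentile, in 3 without _x_at or _s_at probe sets, and in 0 at the 99th percentile or without heart 7. Over all genes the variance test called 5, and 1 to 9 under the alternatives. Levels moved with the offset by construction, Wt1 to 7.04 and 7.61 at offsets of 1 and 64. No paired analysis was possible because the hearts form 1 group. Signal over background limits Msln and Tcf21 most.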
